A study of Arabidopsis thaliana with 4 samples.

Results

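The low probes described here are the 452 array probes whose H3K27me3 value lay at least 0.6 units below the array median in both immunoprecipitations, out of 21740 probes with a value (2.08%). They were chosen by these measured values themselves, so their low level is a description and no test is made of it. What the choice did not use is the place of the probes in the array's naming by series, plate and well; values of neighbouring probes come from the same arrays and are described without a test too. Chromatin of untreated wild-type Columbia (Col-0) seedlings of Arabidopsis thaliana, labelled as 10 day and grown in liquid medium, was immunoprecipitated with a commercial antibody against H3K27me3 and hybridised against its own input DNA on 2-colour tiling arrays. The 2 immunoprecipitations, replicates I and II, were each placed on 2 arrays with the dyes exchanged, and all 4 arrays form 1 group. The labels do not say whether the replicates came from separate cultures, and whole seedlings mix many cell types.

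Trimethylation of lysine 27 on histone H3 is written by Polycomb repressive complex 2, whose catalytic subunits in Arabidopsis include CURLY LEAF and SWINGER. In seedlings the mark typically covers the transcribed regions of developmental genes that are silent in most cells, such as floral homeotic genes. Actively transcribed housekeeping genes and the constitutive heterochromatin around centromeres, which carries DNA methylation and H3K9me2 instead, are known to hold little of it. A low value of immunoprecipitate over input is a relative measure. It does not show that nucleosomes are missing, nor which other mark is present.

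The files leave the log base, the centring and the direction of the values unnamed. Here a value is the number of units from each replicate's median, which stood at -0.94 for replicate I and at -1.20 for replicate II before this subtraction. The low side is taken as the side of least H3K27me3 only because the long tail of the array lies on the other side, and with the sign turned the low probes would be the enriched ones. Both arrays of a replicate carry the same deposited value at every probe, so each probe has 1 value per replicate and n = 2. Probes are known here by plate and well only and are not paired with genes, positions or sequences, so no locus is named. Nothing in the labels or files says that the order of the names follows a chromosome, and wells, runs and stretches below refer to that order alone. For comparison, the 3524 probes that reached 1 unit or more in both replicates (16.2% of all) are called upper probes.

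The low probes formed a narrow band at the bottom of the array. Their values ran from -1.86 to -0.60 units in replicate I with a median of -0.72, and from -1.33 to -0.60 units in replicate II with a median of -0.72. Over all probes the 5th percentile was -0.65 and -0.61 units in replicates I and II, so the limit lies close to the lower edge of the whole distribution. For 292 of the 452 (64.6%) the higher of the 2 replicate values was within 0.1 units of the limit, and 678 probes lay within 0.1 units on its other side. The members just inside were TB97D02, at -0.60 and -0.66 units, and TA44G04, at -0.72 and -0.60. TC23B06, at -0.60 and -0.69 units, and TA24A07, at -0.60 and -0.67, were just outside. The number therefore depends on where the limit and the zero are set: 1130 probes passed a limit of -0.5 units, 160 passed -0.7, and 29 passed -0.6 when each replicate was centred on the mode of the array instead of its median. The scatter of replicate II on replicate I places the low probes in a compact corner with no gap to the other probes.

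**Figure D1:**
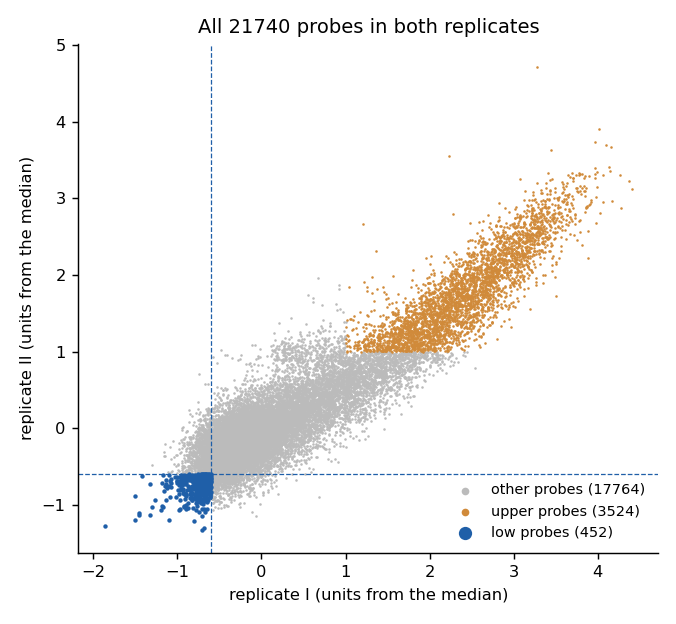
Each of the 21740 probes is a point, with its value in replicate I on the x axis and in replicate II on the y axis, both in units from the replicate's median. Dashed lines mark the limit of -0.6 units; the 452 low probes (blue) join the main cloud without a gap, whereas the 3524 upper probes (orange) form a long tail.

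Only a few probes went far below the limit, with 45 at a mean of -0.9 units or less and 10 at -1 unit or less in both replicates. The lowest was TA53H07, at -1.86 and -1.28 units in replicates I and II (mean -1.57 ± 0.41, SD, n = 2). It headed a run of 4 low probes, but the other members of that run lay between -0.74 and -0.61 units in both replicates. TB81A05, which stood alone, gave -1.503 and -1.204 units (mean -1.35 ± 0.21, SD, n = 2). TA58A11 gave -1.45 and -1.14 units (mean -1.30 ± 0.22, SD, n = 2) and its neighbour TA58A10 gave -1.33 and -1.13 (mean -1.23 ± 0.14, SD, n = 2). TA06C05 gave -1.45 and -1.11 units (mean -1.28 ± 0.24, SD, n = 2), beside TA06C04 at -1.27 and -0.94. All 5 were lower in replicate I, although over all low probes replicate I was the lower one in 228 and not in the other 224. The deepest values were local dips: the median of the wells within 12 on each side, called the local level, was between -0.41 and 0.01 units in replicate I and between -0.30 and -0.11 in replicate II for these 5 probes.

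Requiring both replicates kept the minority of probes that either one alone would choose. In replicate I, 1556 probes (7.16%) lay at -0.6 units or below, and in replicate II 1167 probes (5.37%) did. Of the 1556 chosen in replicate I, 452 (29.05%) passed in replicate II, where the background is the 5.37% of all probes. Of the 1167 chosen in replicate II, 452 (38.7%) passed in replicate I, against 7.16% of all probes. Read in the replicate that did not choose them, low values were shallower but stayed on the low side. The 1556 probes had a median of -0.45 units in replicate II, 94.99% of them were below that replicate's median, and none reached 1 unit. The 1167 probes had a median of -0.54 units in replicate I, with 97.1% below the median and none at 1 unit or more.

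The low probes were unevenly spread over the array's probe series. Low probes made up 3.13% of the TA probes (292 of 9329), 4% of the TC probes (96 of 2400) and 0.656% of the TB probes (63 of 9599), against 2.08% of all probes. The TD plate held 1 of 96, and none of the 316 PD probes was low. TB was the lowest of TA, TB and TC under every alternative for which these shares were computed, except the turned sign, whereas the order of TA and TC changed under some, for example at 8.22% and 7.63% in replicate II alone. Most of the excess came from 3 blocks of plates, taken here because their shares were the highest. The limits of the blocks were set with earlier results of these data known. TA plates 17 to 29 held 73 low probes of 1166 (6.26%), TA plates 30 to 57 held 169 of 2597 (6.51%) and TC plates 13 to 30 held 82 of 1152 (7.12%). Together these blocks hold 22.6% of all probes and 71.7% of the low ones. Outside them 128 of 16825 probes were low (0.761%), and every other TA, TB and TC block had a share between 0.604% and 1.12%.

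The same 3 blocks had few upper probes and low medians. TA plates 17 to 29 had 7.63% upper probes and medians of -0.28 and -0.24 units in replicates I and II. TA plates 30 to 57 had 5.74% upper probes and medians of -0.27 and -0.31 units. TC plates 13 to 30 had 1 upper probe and medians of -0.47 and -0.40 units. Among the TA, TB and TC blocks, TB plates 0 to 49 had the smallest share of low probes, with 29 of 4800. There 22.1% of the probes were upper and the medians were 0.22 and 0.13 units. As low and upper probes come from the same values, this is a description of where the array is low as a whole.

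Of 231 plates, 101 held no low probe and 58 held exactly 1. The share was at least 10% on 11 plates, which hold 4.66% of the probes and 33.4% of the low ones, and 9 of these plates had no upper probe. Plate TA 45 came first with 24 of 96 (25%) and plate TC 30 followed with 14 of its 62 probes (22.6%). Plates TA 44 (15.6%), TA 25 (14.7%) and TA 40 (14.6%) were next. Of the 32 plates without an upper probe, 31 held low probes. On these 32 plates 227 of 2744 probes were low (8.27%), against 1.18% on the 199 plates with upper probes. At the other end, the 6 plates with at least 50% upper probes held 1 low probe in all. The bar plot of shares by plate shows the higher shares on both sides of TA plate 45, a smaller group of them around TA plate 25, and another at the end of the TC series.

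**Figure D2:**
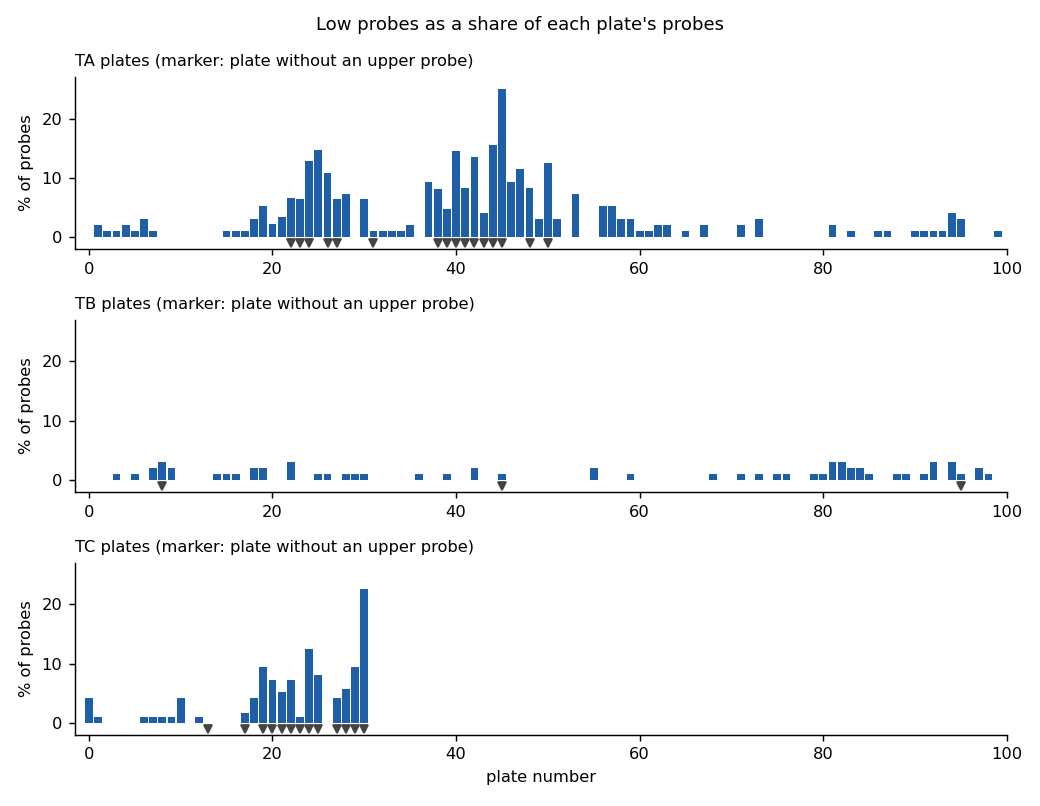
Bars give the low probes as a percentage of each plate's probes for the TA, TB and TC series, in plate order on the x axis, and markers under the axis show plates without any upper probe. Bars reach 25% on plate TA 45 and 22.6% on plate TC 30, and stay low on all TB plates.

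Low probes had low neighbours more often than other probes had. In name order, a low probe was followed in the next well by another in 90 of 442 cases (20.4%), whereas any other probe was followed by a low one in 355 of 21191 cases (1.68%). These shares mix stretches rich and poor in low probes. Within stretches of 100 or more probes without an upper probe, they were 25.2% after a low probe and 5.45% after another. Elsewhere they were 10% and 0.747%, with upper probes counted among the other probes there, so the 2 backgrounds differ in kind. The share of low probes fell with distance, from 16.1% at 2 wells to 12.8% at 5 wells and 7.83% at 12 wells. It was 5.83% at 96 wells, the length of a plate, still above the 2.08% of the array. Choosing in one replicate and reading the next well in the other shares no noise of a single array. The next well passed in replicate II after 16.4% of the probes chosen in replicate I, against 5.33% after any probe. In the opposite direction 23.7% passed in replicate I, against 7.13% after any probe. The share depends on the limit, at 34.7% with -0.5 units and 12.1% with -0.7. It also depends on reading along the rows: with wells read down the plate columns it was 6.95%.

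Even so, most low probes stood alone. The 452 probes formed 362 runs of consecutive wells, of which 311 were single probes holding 68.8% of all low probes. A further 35 runs had 2 probes, 11 had 3, and 5 had 4 or more. Another low probe lay within 5 wells of 269 (59.5%) and within 12 wells of 323 (71.5%), so the single ones were often part of loose groups. Of the 51 runs of 2 or more, 40 lay in stretches of at least 100 probes without an upper probe, as did 193 of the 311 single probes (62.1%).

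The longest run had 15 probes and crossed a plate boundary, from TC29H11 to TC30B01. Its members lay between -0.90 and -0.66 units in replicate I and between -0.94 and -0.71 in replicate II, so no member was deep and none came near 0. Their SD over probes was 0.063 and 0.055 units in replicates I and II. Over the whole stretch without upper probes around them it was 0.317 and 0.298 units, although a run under a fixed limit varies less by construction. The well before the run, TC29H10, was at -0.53 and -0.52 units, and the well after it was TC30B02, at 0.46 and 1.07 units. These are the last plates of the TC series, and plate TC 30 holds values for 62 wells.

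The next run had 9 probes, TA45D02 to TA45D10, with means of -0.71 and -0.70 units in replicates I and II. The wells beside it were nearly as low, with TA45D01 at -0.55 and -0.70 units and TA45D11 at -0.62 and -0.57. It continued a run of 5, TA45C08 to TA45C12, from which TA45D01 separated it. Another run of 5, TA25B06 to TA25B10, had means of -0.71 units in both replicates, between TA25B05 at -0.37 and -0.07 units and TA25B11 at -0.41 and -0.60. These 4 longest runs held no probe with a mean of -0.9 units or less. Shorter runs could be deep, such as the pair TA58A10 and TA58A11 described above and TA19D01 to TA19D03, with means of -0.95 and -0.87 units. Without plate TA 45, 18.2% of the low probes were followed by another, and without the run of 15 probes 17.8% were.

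Low probes lay far from upper probes. The median distance from a low probe to the nearest upper probe was 50 wells, against 10 wells for the 17764 probes that were neither low nor upper. Of the low probes, 151 (33.4%) were at least 100 wells away, compared with 8.96% of the others. An upper probe lay within 20 wells on both sides of 36 low probes (7.96%) and of 32.6% of the other probes. Read by distance, the share of low probes was 0.296% directly beside an upper probe, 0.596% at 2 to 5 wells, 1.64% at 6 to 20, 4.29% at 21 to 99 and 8.66% at 100 wells or more. Over the same classes the median of all probes outside the upper group went from 0.96 to -0.46 units in replicate I and from 0.57 to -0.43 in replicate II, so the whole level falls with distance. The median distance of the low probes was 14 wells with replicate I alone and 26 with replicate II alone, 21.5 without the 2 stretches that hold the most low probes, and 32.5 after equalising the spread of the replicates. With the mode as 0 it was 15 wells, and with upper probes defined at 0.5 units 17, at 1.5 units 131.5. The single replicates, the equal spread and the mode as 0 change the upper probes along with the low ones. The distance of the other probes was not computed under these alternatives, so the 10 wells above are no counterpart to them. The bar plot by distance gives the counts behind these shares.

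**Figure D3:**
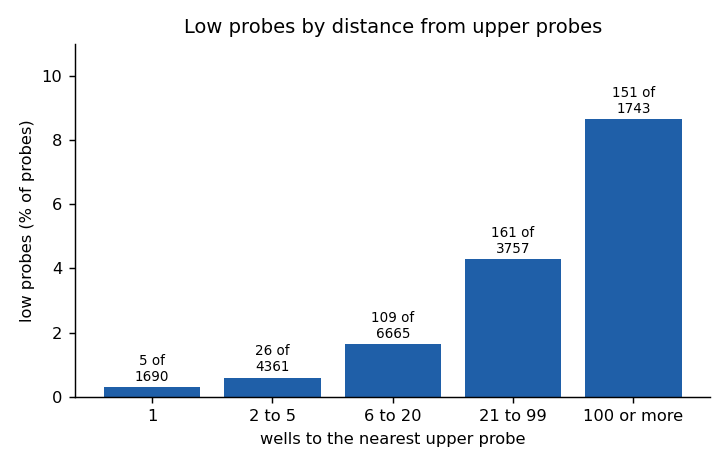
Bars give the low probes as a percentage of all probes outside the upper group at each distance, in wells of the same series, from the nearest upper probe, with the counts above the bars. The share goes from 5 of 1690 probes directly beside an upper probe to 151 of 1743 at 100 wells or more.

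The settings of low probes were told apart by the length of the stretch without an upper probe in which a low probe lies. Of the 452, 309 (68.4%) lay in the 20 stretches of 100 or more probes, which hold 25% of the probes outside the upper group. Another 56 lay in stretches of 50 to 99 probes and 82 in stretches of 10 to 49, and 5 in stretches under 10. The share of low probes was 6.79% in the long stretches, 1.44%, 1.03% and 0.279% in the shorter classes in that order. Centring on the mode, which changes the upper probes too, left 37.9% of its 29 low probes in long stretches. With upper probes defined at 0.5 units, 42.5% of the 452 were in long stretches, and with low and upper probes both taken from replicate I alone 39.8% of the low probes were.

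The long stretches were not alike. The 6 with the most low probes held 263 of the 309, on 12.6% of the array's probes. First was a stretch of 759 probes from TA37C09 to TA46B03, with 91 low probes (11.99%) and medians of -0.48 and -0.51 units in replicates I and II. A stretch of 966 probes from TC18H09 to TC30F02 held 77 (7.97%), with medians of -0.48 and -0.40 units. Then came TA21D06 to TA25F01 with 37 of 359 (10.3%), TA25F05 to TA28C11 with 22 of 251 (8.76%), TA46B05 to TA47G09 with 20 of 161 (12.4%) and TA49A10 to TA51E02 with 16 of 233 (6.87%). All 6 are on TA plates 21 to 51 or on TC plates 18 to 30. The other 14 long stretches, 8 of them on TB plates, held 46 low probes of 1825 (2.52%) and 2 held none. Their medians were -0.22 and -0.15 units in replicates I and II, against -0.46 and -0.44 in the 6. Low probes were thus scarce in some long stretches without upper probes. The 6 were taken by their count of low probes, however, and the shares overlap. Among the 14, TA47H03 to TA49A08 held 8 of 114 (7.02%), above the 6.87% of TA49A10 to TA51E02. TA30E11 to TA32B09 held 7 of 154 (4.55%).

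Within the 759 probes the low ones were present throughout, with 4 to 17 in each successive set of 75 or 76 probes, and the highest counts, 17 and 14, in the last 2 sets, where parts of plates TA 44 and TA 45 lie. In the stretch of 966 probes the last 96 held 19, including the run of 15, and the other sets of 96 or 97 held between 1 and 12. Neighbouring low stretches were often parted by very few upper probes. A single upper probe, TA46B04 at 1.66 and 1.23 units, separates the stretch of 759 from that of 161. The 3 upper probes TA25F02 to TA25F04, between 1.01 and 2.20 units, part the stretches of 359 and 251. Likewise TC18H08, at 1.16 and 1.08 units, stands alone before the stretch of 966, and TA49A09, at 1.63 and 1.31 units, before that of 233. With single upper probes disregarded, 69.9% of the low probes lay in stretches of 100 or more.

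Low probes in long stretches were slightly below low surroundings, and low probes elsewhere were dips in a higher level. In the long stretches the median low probe was at -0.70 and -0.72 units in replicates I and II, with a median local level of -0.48 and -0.49 units. In the stretches of 10 to 49 probes low probes were as low, at -0.78 and -0.72 units, but the local level was -0.14 and -0.10 units. The median drop below the local level, on the mean of the replicates, was 0.24 units in long stretches, 0.59 in stretches of 50 to 99 and 0.69 in those of 10 to 49. A drop of at least 0.5 units was found at 29 of 308 low probes in long stretches (9.42%), at 39 of 56 (69.6%) in stretches of 50 to 99 and at 69 of 82 (84.1%) in those of 10 to 49. Deep probes, with a mean of -0.9 units or less, were 22 of 309 (7.12%), 8 of 56 (14.3%) and 14 of 82 (17.1%) in these classes. As every low probe passed the same limit, a drop from a higher local level has to be larger, so the size of this contrast is set partly by the rule.

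The profile around the low probes shows the same contrast well by well. In long stretches the median was -0.55 units in replicate I one well before the low probe and one well after it, and -0.48 and -0.43 units 12 wells away on either side. Around low probes in stretches under 50 it was -0.43 and -0.42 units in the adjacent wells and had reached 0.28 and 0.23 units at 12 wells. The trough at the low probe itself is deepened by the choice. Read in replicate II after choosing in replicate I, it was smaller: in long stretches the median was -0.54 units at the chosen probe and -0.46 and -0.45 in the wells beside it. In stretches under 100 it was -0.36 units at the chosen probe, -0.22 in both adjacent wells, and -0.07 and -0.10 at 5 wells. The adjacent wells were thus also below the level a few wells further out in the replicate that had not chosen them.

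**Figure D4:**
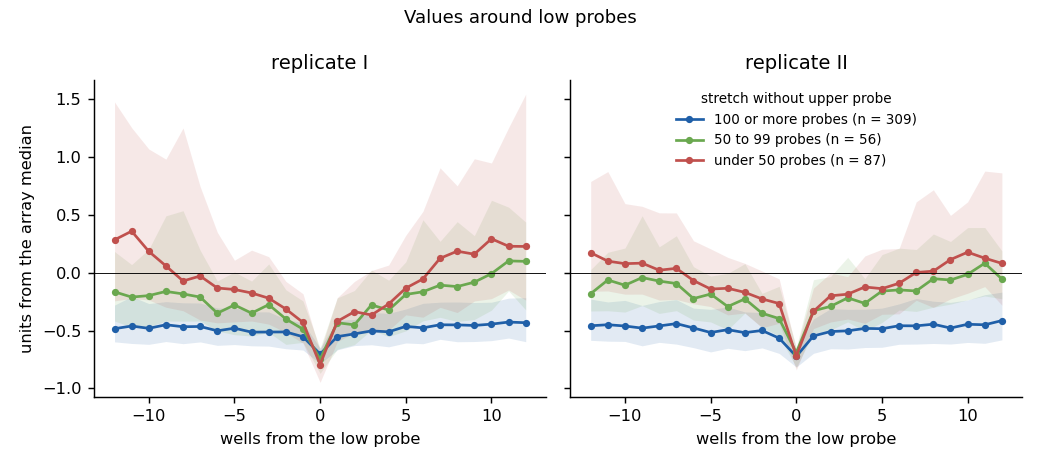
Lines give the median value, and shaded bands the range between the quartiles, in the wells before and after the low probes, in units from the array median, for replicate I (left) and replicate II (right). Low probes in stretches of 100 or more probes without an upper probe (n = 309) sit in flanks near -0.5 units, and those in stretches under 50 (n = 87) in flanks that pass 0 within 12 wells.

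Taking the local level as the reference in place of the array median selects other probes. In all, 1132 probes lay at least 0.6 units below their local level in both replicates, and 76 of them were among the 452. These are 16.8% of the low probes and 6.71% of the locally low ones. Of the 1132, 24 lay in long stretches, and 16 were upper probes themselves, below their neighbours and yet at 1 unit or more. This rule was chosen after the data were seen.

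Low probes directly beside an upper probe numbered 5 of 452. TB82G06, at -0.90 and -1.06 units in replicates I and II, followed TB82G05 at 1.44 and 1.03 units, the last of a pair of upper probes. The next well, TB82G07, was at -0.30 and 0.20 units, so the low value lay in 1 well between higher ones in both replicates. TB88B06, at -0.90 and -0.73 units, followed a single upper probe at 1.15 and 1.04 units. TB15C03, at -0.89 and -0.67 units, followed a single upper probe at 1.89 and 1.13 units. TA95G06, at -0.89 and -0.66 units, preceded a run of 3 upper probes that opens at 2.63 and 1.25 units, in a local level of 1.43 and 1.09 units. At these 4 the difference between the low probe and the upper one beside it was at least 1.77 units in each replicate.

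The fifth, TA37C07 at -0.65 and -0.70 units, lay within a low region and preceded TA37C08, a lone upper probe at 1.22 and 1.90 units after which the stretch of 759 probes begins. On its other side TA37C06 was at -0.58 and -0.65 units, so here the upper probe rather than the low one stood apart. The farthest low probe from any upper one was TC30C10, at -0.77 and -0.85 units, 1094 wells after the nearest upper probe of its series. Its own local level was -0.28 and -0.31 units. The count of wells includes the plate number between TC 25 and TC 27, which holds no probe with a value. The plots of single wells set a run in a low stretch beside an isolated low probe that directly follows a pair of upper probes.

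**Figure D5:**
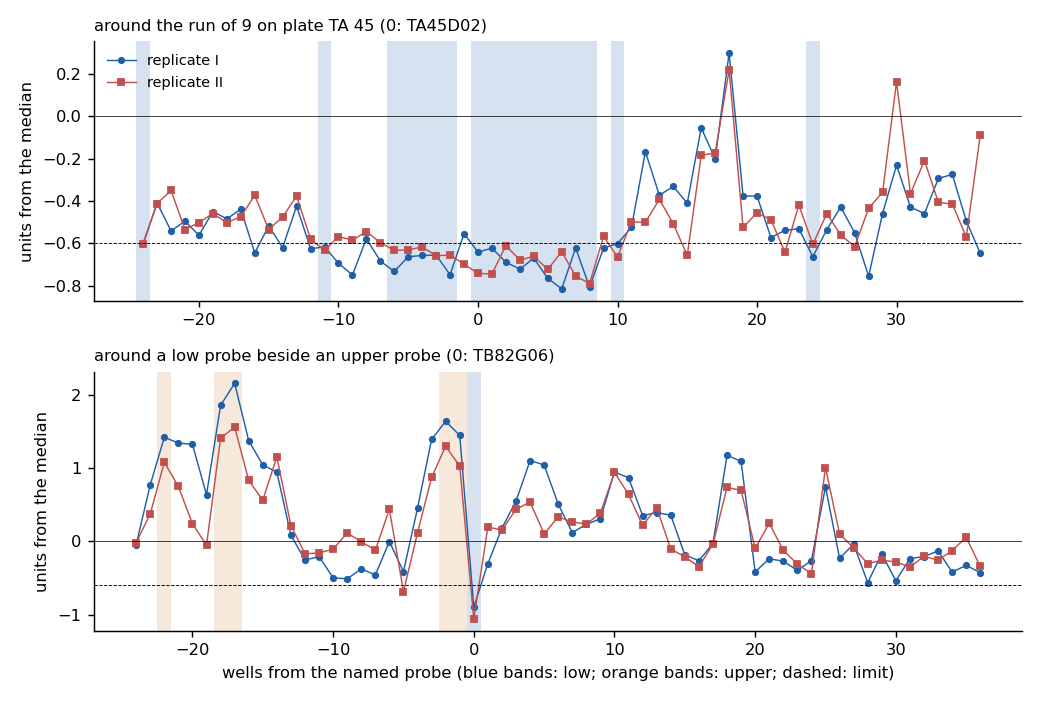
Values of replicate I (circles) and replicate II (squares) in units from the array median, well by well, around TA45D02 (top) and TB82G06 (bottom), with blue bands on low probes, orange bands on upper probes and a dashed line at -0.6 units. The 9 low probes at the top differ little from the wells directly beside them, while wells further on reach 0.30 and 0.22 units, and TB82G06 drops from 1.44 and 1.03 units in the well before it to -0.90 and -1.06.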

How the data were processed

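H3K27me3 immunoprecipitate and input DNA were compared on 4 two-channel arrays, 2 per replicate with dyes exchanged, per the labels. The deposited table gives 1 score for each probe and array, a signed value of the kind a log ratio takes. How the authors normalized it, its log base and its sign: not given in the sources used here. Of 21800 features, 60 have no value: 39 controls and 21 plate-and-well probes. The arrays of a replicate, identical at every probe, were averaged, and the median over all 21740 probes was subtracted from each replicate.

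Order is by name within a series: plate, row, then well, with 96 wells per plate. Distances count wells, empty ones included. Also counted are the plate numbers between TC 13 and TC 17 and between TC 25 and TC 27, which hold no probe with a value. Stretches count probes and run across such gaps. The local level is the median of at least 12 values within 12 wells on either side, the probe itself left out.

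No test was made, because the members were chosen by the values and neighbouring probes are correlated. Shares are set beside those of all probes. With 2 replicates and no intensities, precision rests on their agreement. The SD between replicates, pooled over probes, was 0.125 units for low probes, which the choice narrows, and 0.276 for the others outside the upper group. Members, classes and the rule for named probes (the lowest, those at the limit, the longest runs, those nearest to and farthest from upper probes) were chosen with earlier results of these data known. The rule named the 3 nearest to an upper probe, and the other 2 beside one, the neighbours and TA06C04 were added after their values were seen. Alternatives covered centring, scaling, limits, order and single replicates. The software was Python 3.11.15, with matplotlib 3.10.9, scipy 1.17.1, pandas 2.3.3 and numpy 2.4.6.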

Additional observations from a re-analysis of the deposited data

How the results depend on the processing

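The number of low probes (452) and the measures that follow from it depend on where 0 and the limit lie. Without centring 13519 probes passed, 87.2% followed by another, with a median distance of 40 wells to an upper probe. With the mode as 0 there were 29, with 11.1% followed by another, 15 wells and 37.9% in long stretches. A limit of -0.5 gave 1130 and 34.7%, and -0.7 gave 160, 12.1% and 40.5 wells. The mean of the replicates at -0.6 gave 897, 28.2% and 40 wells. Turning the sign gave 5100, 75.2%, 1254 wells and 99.7%. With 1 replicate left out the ranges were 1167 to 1556 probes, 30.3 to 31.3% followed by another, 14 to 26 wells and 39.8 to 58.4% in long stretches. The share followed by another (20.4%) was 24.3% with the TA and TB median as 0, 12.7% after equalising the spread of the replicates, 19.4% after quantile normalization and 6.95% down the columns. The median distance (50 wells) was 32.5 after equalising the spread and 36 after quantile normalization. With upper probes at 0.5 or 1.5 units it was 17 or 131.5, and without single upper probes 63.5. The share in long stretches (68.4%) was 42.5% with upper probes at 0.5 units and 55.1% for stretches of 200 or more. Added after the data were seen, leaving out plate TA 45 gave 18.2% followed by another, and leaving out the run of 15 gave 17.8%. Without the 2 stretches with the most low probes there were 284, with 15.9%, 21.5 wells and 49.6%. The limit set below the local level gave 1132, with 48.7%, 3 wells and 2.12%. The shares of low probes in TA, TB and TC (3.13, 0.656 and 4%) were 61.5, 58.6 and 80.6% without centring and 23.3, 26.1 and 11.7% with the sign turned. With 1 replicate left out they were 8.22 to 8.47%, 2.23 to 3.86% and 7.63 to 15.4%. TA and TC had 7.67 and 10.5% at -0.5. TA alone also moved by more than the spread of the single replicates under further settings. It was 0.247% with the mode as 0, 4.54% with the TA and TB median, 2.17% with equal spread and 1.16% at -0.7. TA was at 6.11% for the mean, 2.90% without plate TA 45 and 2.35% without the 2 stretches. That spread is the SD of 2 values, at 0.174 points for TA, 1.16 for TB and 5.51 for TC. The TB and TC spreads exceed the shares themselves, so no fall could count as a move there. With the mode as 0, TB fell to 0.0313% and TC to 0.125%, and without the 2 stretches TC fell to 1.32%. By construction, another 0 or limit changes the number of low probes and their share of each series. Another upper rule likewise changes distances and stretches. With each new 0, scaling, single replicate or turned sign, the upper rule was applied to the new values. The upper probes therefore changed too, and with them distances and stretches. With the mode as 0, the median distance went from 50 to 15 wells and the share in long stretches from 68.4% to 37.9%. How much of this came from the changed upper probes was not tested. A new limit alone left the upper probes as they were and does not fix how the low probes it selects are placed. Why the remaining measures shifted was not tested. Windows of 6 or 24 wells moved the drops of 0.5 units from 9.42% to 8.77% or 13.3% in long stretches and from 79.0% to 55.9% or 88.8% elsewhere. No paired analysis was possible because all arrays form 1 group. Without brightness values, the effect of dim spots was not tested.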

Other observations

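The place of a probe within its plate, which the choice did not use, went with small differences. The share of low probes ran from 1.52% to 2.55% over the 8 plate rows and from 1.49% to 2.60% over the 12 well numbers, around 2.08% for the array. Wells without a value were more often next to low probes, beside 15 of 452 (3.32%) against 180 of all 21740 probes (0.828%). Most of this went with the blocks: on TA plates 17 to 57 and TC plates 13 to 30 it was 14 of 324 low probes (4.32%) and 163 of all 4915 probes (3.32%). Elsewhere it was 1 of 128 low probes (0.781%) and 17 of all 16825 probes (0.101%), so the comparison there rests on 1 low probe. The part of empty wells in the low values was not tested.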
